A study of Mus musculus with 32 samples.

Results

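The late intestinal epithelium of the mouse embryo was described here as the cells that the study labelled epithelial in the intestine and placed in its cluster intestine2, all of them from embryonic days E10.5 and E11.5. There were 53 such cells among the 1916 cells of the series and among 110 intestinal epithelial cells of all days. The cluster had been built by the study from the expression of these same cells. What sets it apart from the other intestinal cluster is therefore given below as a description without a test. The cluster also chose the intestinal side of the tests against other organs, as 53 of 61 intestinal epithelial cells of E10.5 and E11.5 were members. The other organs entered with every epithelial cell of these days. The cells came from wild-type C57BL/6J embryos, with no transgene and no treatment in any group, and each was picked by mouth pipette after trypsin dissociation of the dissected organ. At E10.5, 7 members came from embryo 1 and 1 from embryo 2, and at E11.5 embryo 1 gave 21 and embryo 2 gave 24. Of the 24, 2 cells had identical values in every gene, 1 of 14 such pairs found in 14 of the 32 deposited tables, and they may be 1 cell entered under a pair of names. All values below count the cells as listed; with the pair counted once there were 52 members, and no intestinal mean of a named gene in E11.5 embryo 2 moved by more than 0.104 on the log2 scale used below.

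At these days the gut tube is lined by a single layer of tall, dividing endoderm cells, and villi and crypts have not yet formed. The layer is known to send hedgehog proteins to the mesenchyme around it and to hold its intestinal identity through factors such as Cdx2, Gata4 and Hnf4a. Lung buds and liver arise from the same foregut endoderm, whereas skin epithelium comes from surface ectoderm, so these 3 epithelia were used for comparison.

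The comparison groups were epithelial cells of the same 2 days: 37 of lung, 13 of liver and 62 of skin. Within an embryo all cells of an organ share an animal, so cells were averaged within each embryo on the scale log2(value/10 + 1). The value is in CPM, the unique molecular identifiers (UMIs, tags that mark single RNA molecules) of a gene scaled to 1000000 UMIs of the cell. An embryo entered with at least 3 cells, which left 3 embryos for intestine and for liver and 4 each for lung and skin; the single member of E10.5 embryo 2 stayed outside the fits. The threshold for calling a gene expressed in a cell was 1 on this scale. The median depth was 378972 UMIs per cell for the members (25571 to 988870), against 230432 for lung, 308925 for liver and 187783 for skin. Each organ and day was a sample of its own that held both embryos, so organ and library cannot be told apart. The p-values measure the spread between embryos only, and the 4 organs shared 1 estimate of it. For a gene with few or no UMIs in the other organs that estimate includes their lack of spread. Its SE and p-value can then understate the spread among intestinal embryos. Genes with no UMIs there, among them Isx, Tdh, Pitx1, Cdx2, Prdm1 and Ihh, also passed the filter, expression in at least 3 cells, only through the members. Their p-values are therefore no independent support for the difference. For the genes named here the SE and the limma p-value against the 3 organs together are left out below.

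The 4 markers that go with the label were Epcam, an epithelial adhesion protein, Lgals2, a galectin of the gut lining, Isx, an intestinal homeobox factor that controls vitamin A uptake, and Elf3, an epithelial transcription factor. Lgals2 was expressed in 53 of 53 members, and its embryo means were 6.39 at E10.5 and 6.93 and 6.72 in embryos 1 and 2 at E11.5. It was at 0 UMIs in lung and skin and between 1.31 and 2.38 in the 3 liver embryos. No embryo of another organ came near the intestinal range, and the difference to the 3 organs together was 6.06 (SE 0.26, limma adjusted p = 5.68e-12). Over all UMIs of each group, Lgals2 was at least 3496-fold higher than in lung and at least 4925-fold higher than in skin, taking 3 UMIs per group as the limit that a count of 0 allows, and 29.1-fold higher than in liver. These limits cover counting error only.

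Isx was expressed in 48 of 53 members and at 0 UMIs in the other 3 organs. Its embryo means were 2.58 at E10.5 and 3.86 and 3.43 at E11.5, a difference of 3.24. DESeq2 on summed UMIs gave Isx an adjusted p = 0.0599. Epcam ran from 6.05 to 6.67 in intestine and from 5.59 to 6.37 in lung, which overlap, and was lower in skin (4.00 to 4.68) and in liver (0.57 to 1.84). Elf3 was the weakest of the markers. Its 3 embryo means were 1.10, 2.28 and 1.46 with expression in 32 of 53 members, and the difference of 0.87 to the other organs together was not past the test (limma adjusted p = 0.0838). For comparison, in 48 intestinal mesenchymal cells of the same days Lgals2 was at 11.1 CPM against 1184 in the members, and Isx at 4.96 against 144. Whether these low levels are free RNA was not tested.

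**Figure D1:**
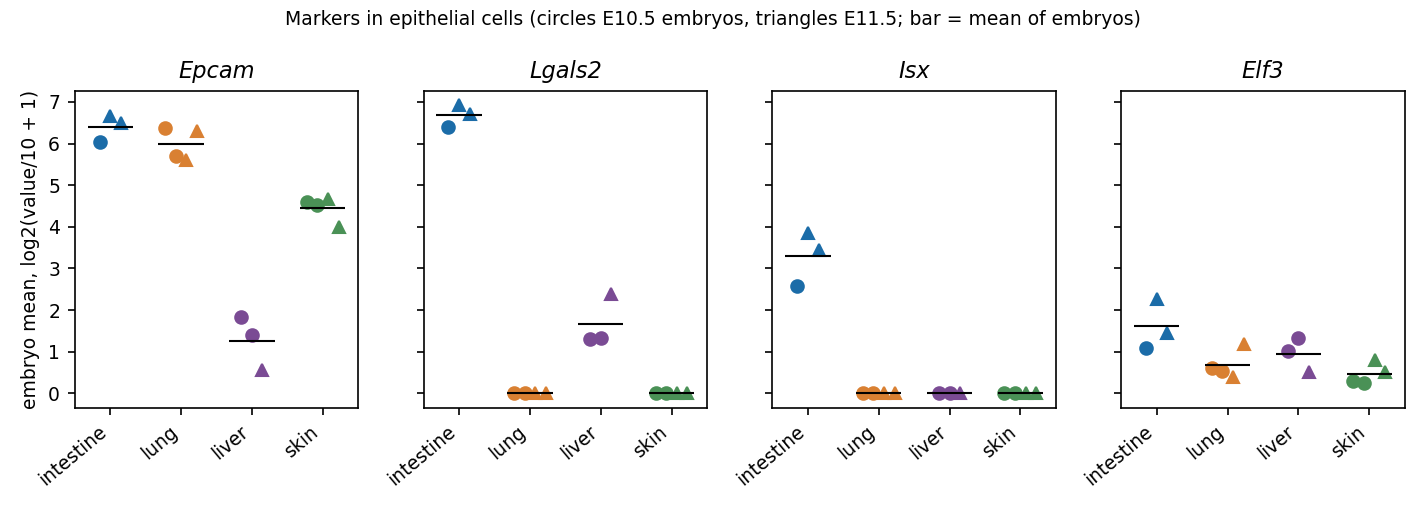
Embryo means of Epcam, Lgals2, Isx and Elf3 on the log2(value/10 + 1) scale in epithelial cells of 4 organs; circles are E10.5 embryos, triangles E11.5 embryos and bars the mean over embryos. Lgals2 lies between 6.39 and 6.93 in intestine and at 0 in lung and skin, Isx lies at 0 in the 3 other organs, and Epcam of intestine and lung overlap.

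The proximal promoters of Lgals2, Isx and Tspan8 are shown because these genes were high in the members and low or at 0 elsewhere. They come from RefSeq on build GRCm38.p6, run 5′ to 3′ from 250 bases before to 50 bases after the transcription start, and capitals mark letters known as binding motifs of gut factors: TTTATG for CDX factors, AGATAA for GATA factors and TGTTTAC for FOXA factors, searched on both strands together with CAAAGTCCA for HNF4, the HNF1 motif and TATAAA for the TATA box. No motif overlaps another one in these 3 promoters. Lgals2 lies on the minus strand of chromosome 15 (gene at 78850860 to 78855529, promoter at chr15:78855480-78855779), Isx on the plus strand of chromosome 8 (gene at 74873173 to 74893506, promoter at chr8:74872924-74873223) and Tspan8 on the plus strand of chromosome 10 (gene at 115816832 to 115849893, promoter at chr10:115817034-115817333). The Tspan8 window belongs to a transcript that starts at 115817284, inside the gene as annotated, and its motif positions are counted from there.
Lgals2: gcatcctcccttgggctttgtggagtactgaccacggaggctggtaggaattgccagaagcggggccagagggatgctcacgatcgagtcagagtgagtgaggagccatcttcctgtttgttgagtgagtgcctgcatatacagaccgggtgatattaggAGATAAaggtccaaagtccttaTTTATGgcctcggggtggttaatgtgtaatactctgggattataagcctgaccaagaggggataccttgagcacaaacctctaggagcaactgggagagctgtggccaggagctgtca
Isx: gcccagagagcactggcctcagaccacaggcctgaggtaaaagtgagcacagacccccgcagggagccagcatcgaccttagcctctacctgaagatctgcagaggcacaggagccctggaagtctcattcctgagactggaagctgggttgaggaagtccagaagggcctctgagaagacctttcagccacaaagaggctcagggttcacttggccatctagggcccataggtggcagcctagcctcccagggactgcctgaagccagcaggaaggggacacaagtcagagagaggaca
Tspan8: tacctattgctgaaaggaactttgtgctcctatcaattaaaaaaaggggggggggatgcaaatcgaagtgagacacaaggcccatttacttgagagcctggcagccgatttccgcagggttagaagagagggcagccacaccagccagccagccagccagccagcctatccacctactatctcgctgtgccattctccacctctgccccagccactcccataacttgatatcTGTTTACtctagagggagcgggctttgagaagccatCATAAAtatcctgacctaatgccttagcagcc
Counted from the transcription start, the Lgals2 promoter holds AGATAA at -90 and TTTATG at -68, both as written. The Tspan8 promoter holds TGTTTAC at -18 and the reverse complement of TTTATG at 19. None of the 6 motifs occurs in the Isx window. Of all 27025 promoters of this length, 12.1% hold TTTATG, 11.4% AGATAA and 3.55% TGTTTAC. Of the 98 genes that were higher in intestine than in each other organ (below), 72 had a promoter in the table, and 8.33%, 5.56% and 6.94% of these held the 3 motifs; among 10251 promoters of the genes tested the shares were 6.31%, 6.19% and 2.46%. A match is a match of letters and says nothing of binding.

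Against lung, liver and skin together, 445 of 13512 genes (3.29%) passed the test, which asked for a limma adjusted p under 0.05 and a log2 difference of at least 1. Of these, 267 genes (1.98%) were higher in the members and 178 (1.32%) lower. Against lung alone 374 genes passed (2.77%), 252 higher (1.87%) and 122 lower (0.903%), against liver 1076 (7.96%), 478 higher (3.54%) and 598 lower (4.43%), and against skin 931 (6.89%), 437 higher (3.23%) and 494 lower (3.66%). The same direction in all 3 was found for 98 genes higher (0.725%) and 9 lower (0.0666%). Counts of called list members below are to be read beside these shares over all genes, and a single call says nothing of its list. The split between directions depended on the tool: of the genes called against the 3 organs together 60.0% were higher by limma, 78.9% by edgeR and 56.7% by DESeq2, and against liver the shares were 44.4%, 60.3% and 61.9%. Against lung they were 67.4%, 59.6% and 53.4%. The median over all genes was -0.03 by limma and 0.12 by edgeR for the 3 organs together, and 0.00 and 0.20 for liver. Since the members were sequenced more deeply, all cells were also thinned to 100000 UMIs, which left 254 genes higher and 155 lower. With every intestinal epithelial cell of these days, not only the members, 418 genes passed, 236 higher and 182 lower. Against each organ 89 were then higher and 8 lower, of which 80 and 7 were among the 98 and 9. Of the named genes, Smoc2, Sp5, Trp63, Fgfr4, Cdh2 and Slc2a3 lost their calls against the 3 organs together in that setting. Leaving out 1 embryo with all of its organs gave 289 calls without E10.5 embryo 1, 232 without E11.5 embryo 1 and 264 without E11.5 embryo 2, each from fewer embryos.

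The genes with the largest differences among the 98 included Lgals2, Fam183b, Osr2, Tspan8, Tdh, Cpne8, Cdkn1a, E030030I06Rik, Ociad2, Isx, Arg1, Lad1, Pth1r and Cib2. In each of them all 3 intestinal embryos were above all 11 embryos of the other organs, a pattern that 287 of all genes tested (2.12%) showed. By DESeq2 on summed UMIs, Tdh and Isx lost their calls against each of the 3 organs. Fam183b, Tspan8, Cdkn1a and E030030I06Rik lost theirs against lung and Pth1r against liver. By edgeR, Arg1 and Lad1 lost theirs against lung. Fam183b, a gene otherwise used as a marker of ciliated cells, had embryo means of 5.86 at E10.5 and 6.07 and 6.00 at E11.5, and it was expressed in 53 of 53 members. In lung its 2 E10.5 embryos were at 2.39 and 2.02 and its E11.5 embryos at 0.28 and 0.00, and liver and skin held 0 UMIs. The difference was 5.72 (SE 0.35, limma adjusted p = 1.41e-09). Of the other listed genes of ciliated cells, Foxj1, the master regulator of motile cilia, had 1 UMI in all members, Tekt1, a protein of ciliary microtubules, was expressed in 18 of 53, and 5 of the 10 listed genes (Ccdc113, Tekt4, Dnah5, Dynlrb2 and Mcidas) had none.

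Osr2, an odd-skipped zinc finger transcription factor, was at 5.15, 5.27 and 4.87 in the E10.5 embryo and the 2 E11.5 embryos, while the other organs ranged from 0.00 to 1.16, with the top value in skin of E10.5 embryo 1. The difference was 4.98 (SE 0.27, limma adjusted p = 2.06e-10). Pitx1, a homeobox factor, was expressed in 21 of 53 members and had 0 UMIs in the other organs. Its difference of 1.02 was 0.80 without E11.5 embryo 1, under the size asked for, and DESeq2 gave Pitx1 an adjusted p = 0.220.

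Several enzymes and membrane proteins were among the named genes. Tdh, a mitochondrial threonine dehydrogenase, was at 4.29, 3.51 and 3.66 and at 0 UMIs in every cell of the other organs, a difference of 3.85. Arg1, the arginase of the urea cycle, was at 4.11, 4.05 and 4.10, and lung E10.5 embryo 2 came nearest at 3.26. Its difference of 3.21 (SE 0.39, limma adjusted p = 9.75e-06) held, but against lung alone the adjusted p was 0.0596 without E10.5 embryo 1 and 0.0910 without E11.5 embryo 1. Pth1r, the receptor of parathyroid hormone and its related peptide, was at 2.5 at E10.5 and at 4.03 and 4.02 at E11.5, and no embryo of another organ exceeded 0.93. Hk2, a hexokinase that starts glucose use, was at 3.94 to 4.29 in intestine and reached 3.58 in lung, a difference of 2.18 (SE 0.33, limma adjusted p = 0.000175). Tspan8, a tetraspanin of epithelial membranes, was at 4.44, 4.77 and 4.28, with 1 lung embryo at 2.61 and every other embryo of the 3 organs at 0.66 or less.

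**Figure D2:**
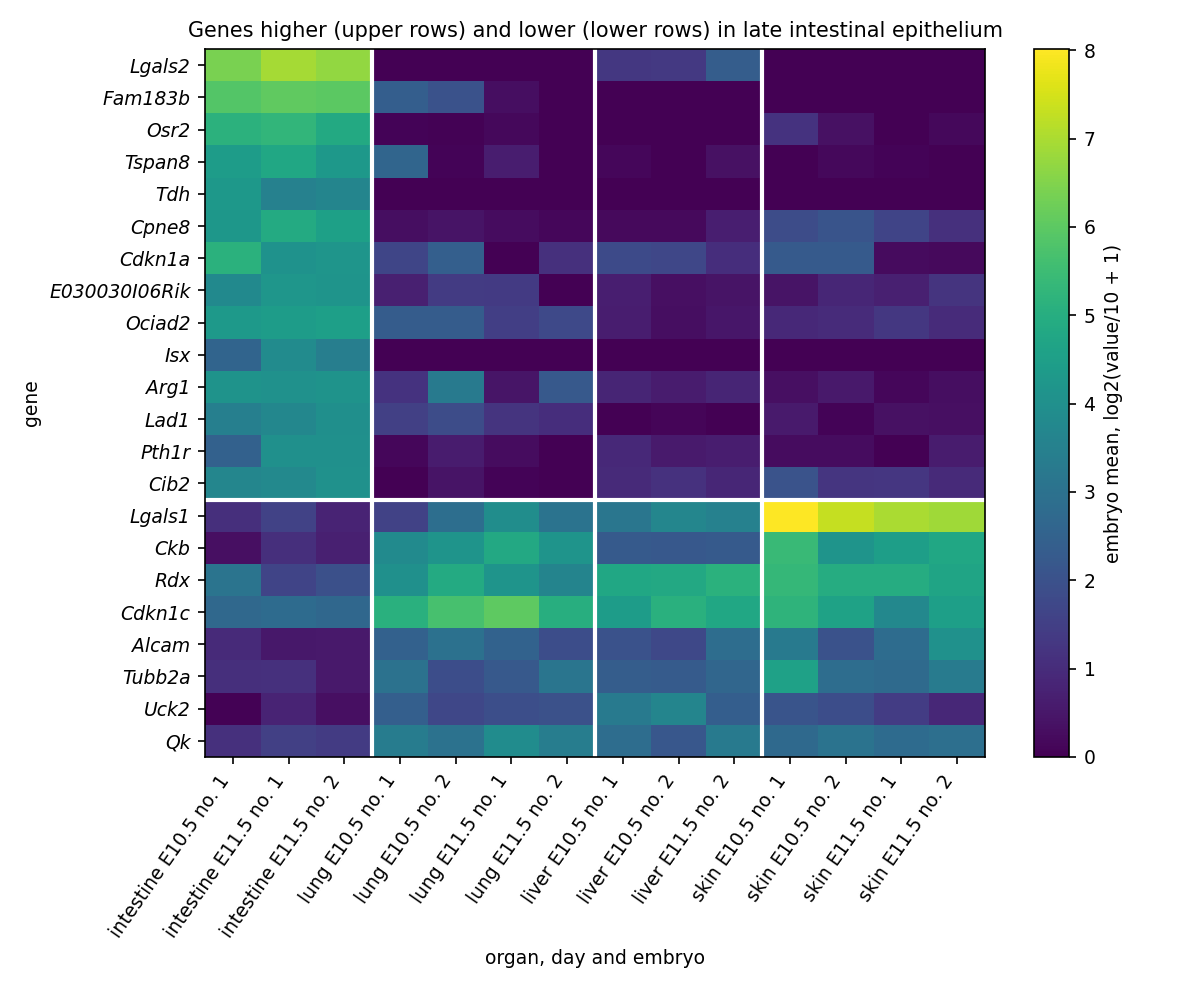
Embryo means on the log2(value/10 + 1) scale (colour) for genes with the largest differences among those higher than in each other organ (upper rows) and among those lower (lower rows); columns are embryos, grouped by organ. The intestinal columns are the brightest in each of the upper rows, and Lgals1 of skin, at 6.88 to 8.01, is the brightest of the lower rows.

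Cdkn1a and Cdkn1c, both inhibitors of cyclin-dependent kinases, differed in opposite directions. Cdkn1a (p21) was at 5.12 in the E10.5 embryo and at 4.07 and 4.18 at E11.5, and expressed in 49 of 53 members. In the other organs it ranged from 0.00 to 2.42, and within lung and skin the E10.5 embryos were higher than the E11.5 embryos. The difference was 3.41 (SE 0.30, limma adjusted p = 2.10e-07). Cdkn1c (p57), an imprinted gene expressed from the maternal copy, was at 2.71, 2.80 and 2.68, and every embryo of the other organs was higher, from 3.73 in skin to 6.03 in lung. Its difference was -2.14 (SE 0.27, limma adjusted p = 2.16e-05).

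The other genes lower than in each organ were Ckb, Rdx, Lgals1, Qk, Alcam, Tubb2a, Uck2 and Slc38a4. Ckb, the brain-type creatine kinase, was at 0.34, 1.09 and 0.69, against at least 2.22 in every other embryo, a difference of -3.08 (SE 0.28, limma adjusted p = 2.79e-07), with an adjusted p = 0.0615 against liver without E11.5 embryo 2. Rdx (radixin), which ties actin to the membrane, was at 3.09 in the E10.5 embryo and at 1.63 and 1.94 at E11.5, against 3.60 to 5.32 elsewhere (difference -2.36, SE 0.27, limma adjusted p = 4.28e-06). Lgals1, a galectin of mesenchyme and ectoderm, was lowest in the members at 1.08, 1.57 and 0.81 and highest in skin, and 1 lung embryo, at 1.57, overlapped with them. Its difference to lung of -1.74 (limma adjusted p = 0.0142) lost its call without E10.5 embryo 2 (0.0993), E11.5 embryo 1 (0.139) or E11.5 embryo 2 (0.246). Qk, an RNA-binding splicing regulator, had a difference of -1.75 (SE 0.26, limma adjusted p = 0.000107), and against liver its adjusted p was 0.0592 without E10.5 embryo 1 and 0.0868 without E11.5 embryo 2. Alcam, Tubb2a and Uck2 lost their calls against the 3 organs together when a single embryo was left out, which leaves fewer samples. By limma, Alcam had an adjusted p = 0.0574 without E11.5 embryo 1, where its difference was -1.91 against -1.96 with all embryos. Tubb2a had 0.14 without E11.5 embryo 2 and Uck2 0.0843 without E10.5 embryo 1. Calls of these 3 genes against lung alone were lost without 1 or more embryos as well, and so were those of Alcam and Tubb2a against liver. Against skin the call of Uck2 was lost without any 1 of the 4 embryos and by edgeR. The ninth gene, Slc38a4, an amino acid transporter, was named after its values were seen, and its difference was -1.70 (SE 0.36, limma adjusted p = 0.00482).

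Of 26 listed regulators of gut endoderm 24 could be tested. Against the 3 organs together 6 were higher (Osr2, Isx, Foxa1, Hnf4g, Gata4 and Cdx2) and 3 lower (Foxa2, Creb3l3 and Onecut2), with a median difference of 0.60 against -0.03 over all genes. Creb3l3 and Onecut2, which act in liver, were lower through liver alone and lost their calls without either E11.5 embryo, and on summed UMIs edgeR called 12 of the list higher and 0 lower. Against lung 6 were higher and 1 lower, against liver 8 and 6, and against skin 11 and 0. Cdx2, the factor that sets intestinal against gastric identity, was low but even between embryos, with embryo means of 1.33, 1.18 and 1.22. It was expressed in 24 of 53 members (45.3%), and it had 0 UMIs in lung, liver and skin. The difference was 1.25, and Cdx2 was at least 45-fold higher than in liver, where the limit of 3 UMIs is least strict. Hnf4g, a nuclear receptor of enterocytes, was at 1.82, 1.86 and 1.87 with 0 UMIs in lung and skin (difference 1.73, SE 0.15, limma adjusted p = 2.10e-07). Its relative Hnf4a was at 1.10, 1.33 and 1.21, at 0 UMIs in lung and skin and at 1.94 to 3.70 in liver, and its difference to the 3 organs together was 0.27 (limma adjusted p = 0.689). Here the tools differed: on summed UMIs Hnf4a was called higher by edgeR (5.65, adjusted p = 0.000234) and by DESeq2 (4.88, adjusted p = 1.49e-06).

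The GATA and FOXA factors differed among themselves. Gata4 was at 2.36 in the E10.5 embryo, 0.57 in E11.5 embryo 1 and 1.57 in E11.5 embryo 2, the widest spread among the called regulators, with every embryo of the other organs at 0.23 or less. Its difference was 1.48 (SE 0.22, limma adjusted p = 0.000119) and fell to 0.97, under the size asked for, without E10.5 embryo 1. Gata6 ranged from 1.62 to 1.82 in intestine and from 0.00 to 3.06 in lung, and Gata5 from 0.99 to 1.33 and from 0.76 to 1.43, and neither was past the limma test against the 3 organs together, while edgeR called Gata5 higher (adjusted p = 0.0121). Foxa1, a pioneer factor of endoderm, was at 2.94, 3.55 and 3.41, overlapped with lung (2.0 to 3.46) and was at most 0.07 in skin. The difference was 1.96 (SE 0.36, limma adjusted p = 0.00140), with an adjusted p = 0.0795 without E11.5 embryo 2. Foxa2 was near 0 in the members (0.08, 0.09 and 0.43) but at 2.22 to 3.84 in lung, a difference of -2.81 to lung (SE 0.39, limma adjusted p = 7.30e-05). Against the 3 organs together, the call of Foxa2 was lost when any of the 3 embryos with members was left out, with adjusted p from 0.0923 to 0.244.

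**Figure D3:**
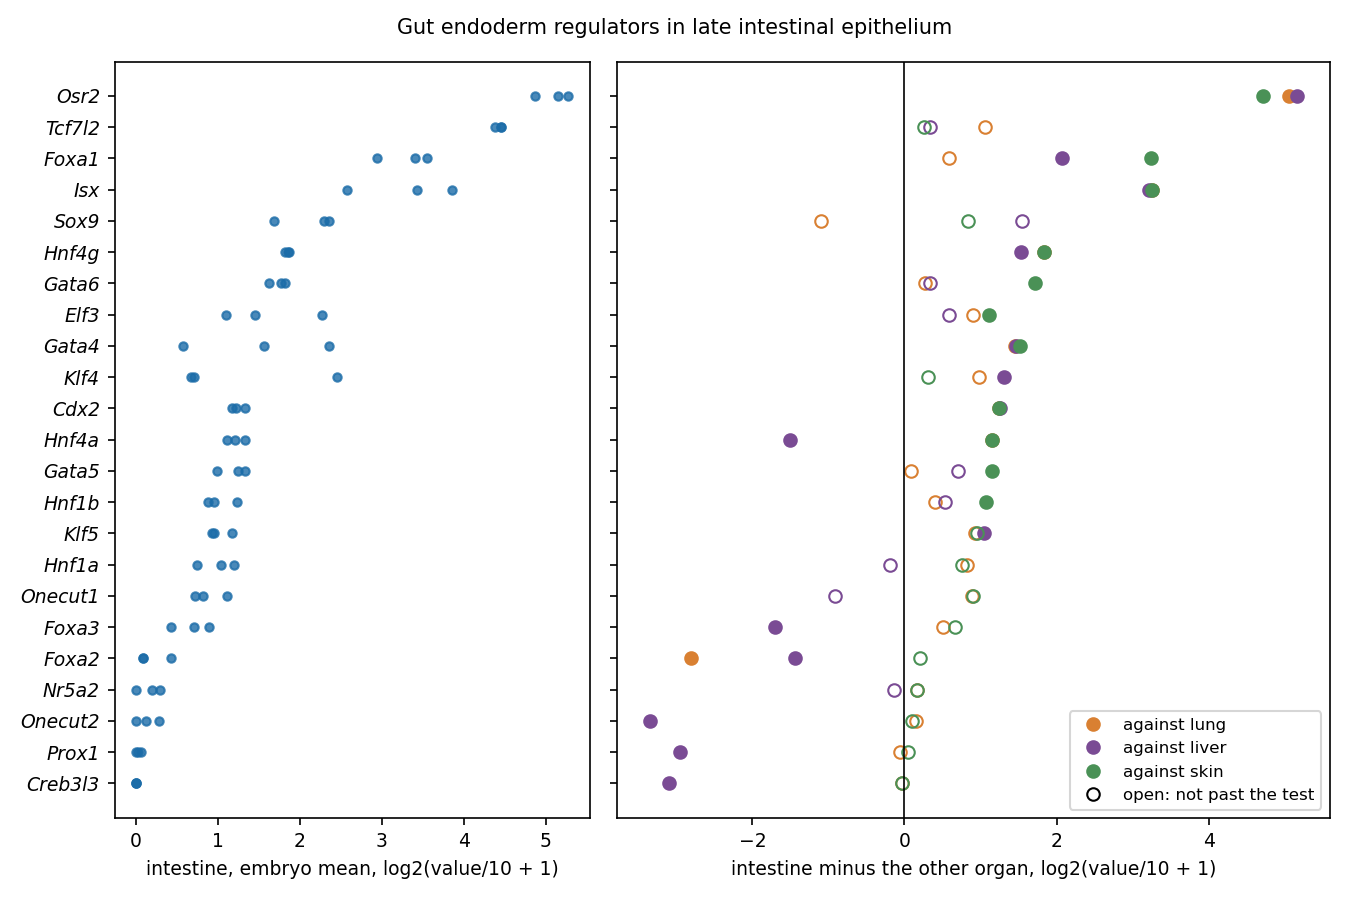
Left, embryo means of tested regulators of gut endoderm in the 3 intestinal embryos on the log2(value/10 + 1) scale; right, the difference of intestine to lung, liver and skin, filled where past the test. Osr2, Isx, Hnf4g, Gata4 and Cdx2 are filled and above 0 against all 3 organs, and Onecut2, Prox1 and Creb3l3 lie below -2 against liver.

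Genes of absorption were present in part. Of 35 listed genes of absorption and brush border 23 could be tested; against the 3 organs together 3 were higher (Lgals2, Dpp4 and Vil1) and 1 lower (Apoa1), while edgeR called 10 higher and 0 lower. Against lung 7 were higher and none lower, and against liver 3 were higher and 7 lower. Dpp4, a brush border peptidase, was at 3.21, 3.53 and 3.16 and above all other embryos, which reached 1.54 in lung (difference 2.72, SE 0.26, limma adjusted p = 5.75e-07). Vil1 (villin), which bundles the actin of microvilli, was at 1.01 in the E10.5 embryo and at 2.16 and 1.98 at E11.5, with 0 in lung and skin and at most 0.73 in liver (difference 1.53, SE 0.19, limma adjusted p = 2.02e-05). The direction of Apoa1, an apolipoprotein, rested on the scale: liver stood at 7.42 to 8.88, intestine at 1.25 to 2.20 and lung and skin at 0.43 or less, and the difference was -1.18 by limma but 1.30 by edgeR. Leaving out any 1 of the 4 embryos gave Apoa1 a limma adjusted p between 0.0551 and 0.166.

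Of 22 secretory and endocrine genes only 3 passed the filter on low values, and 12 had 0 UMIs in the members, among them Neurog3, which starts the endocrine lineage, and Atoh1, which starts the secretory lineage. Tff3, a trefoil peptide of goblet cells, was at 2.78, 1.73 and 1.96, with 0 in lung and skin and at most 0.71 in liver (difference 2.04, SE 0.20, limma adjusted p = 7.59e-07). It was expressed in 32 of 53 members. Rfx6, a factor of endocrine precursors, was at 2.23, 1.46 and 1.76 and in lung at 1.82, 1.39, 0.44 and 0.00, which overlaps, and the difference to the 3 organs together was 1.63 (SE 0.25, limma adjusted p = 0.000236). Prdm1, a repressor (Blimp1) listed here among germ cell markers, was at 1.68, 1.97 and 2.41 with 0 UMIs in the other organs, a difference of 2.0. DESeq2 on summed UMIs gave Prdm1 an adjusted p = 0.0967. The germ cell genes Ddx4, Pou5f1 and Prdm14 had 0 UMIs in the members.

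Some genes better known from liver were shared with it. Of 20 hepatoblast genes, all tested, 5 were higher in the members than in lung and 5 than in skin, and against liver 18 were lower and none higher. The 5 were the same genes against both organs, Afp, Ttr, Rbp4, Serpina1a and Trf, and Afp, Rbp4 and Trf were named after their values were seen. Serpina1a, an antitrypsin, was at 5.39, 5.77 and 5.02 in intestine and at 6.02 to 6.27 in liver, with 0 UMIs in lung and skin. Its difference to liver was -0.79 (SE 0.30, limma adjusted p = 0.104; called lower by edgeR, -1.20 with adjusted p = 0.0118), and to the 3 organs together 3.33 (SE 0.24, limma adjusted p = 1.50e-08). Ttr, the carrier of thyroid hormone and retinol, was at 4.95, 5.51 and 5.45 in intestine, at 8.04 to 8.29 in liver and at 0.87 or less in lung and skin. Alb (albumin), by contrast, was at 0.00, 0.01 and 0.02 in the members and at 5.86 to 8.76 in liver.

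The hedgehog ligands were the part of that pathway that was higher. Of 13 tested hedgehog genes, 2 were higher than in the 3 organs together, Shh and Ihh, and 1 lower. Shh was at 3.19 in the E10.5 embryo and at 3.83 and 3.57 at E11.5, in lung at 2.62, 2.29, 1.97 and 1.30, and at 0 UMIs in liver and skin. All intestinal embryos were above all lung embryos. The difference was 2.88 to the 3 organs together (SE 0.28, limma adjusted p = 6.69e-07) and 1.51 to lung (SE 0.32, limma adjusted p = 0.00687), the latter with adjusted p = 0.155 without E11.5 embryo 1 and 0.153 without E11.5 embryo 2. Ihh was at 0.45, 1.38 and 1.56 with 0 UMIs elsewhere, a difference of 1.09. This difference was 0.97 without E11.5 embryo 1 and 0.85 without E11.5 embryo 2, and DESeq2 gave Ihh an adjusted p = 0.203. The third call of this list, Gas1, a co-receptor, was low in the members (0.07 to 0.49) and high in skin alone (3.03 to 4.44). Its difference of -1.02 lost its call without any 1 of the 4 embryos (adjusted p from 0.0901 to 0.424) and was 0.03 by edgeR.

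Of 21 tested genes of BMP and TGF beta signalling none was higher than in the 3 organs together and 3 were lower, Id3, Id1 and Tgfb2. Against single organs Id1 was not called against lung, and Id3 and Tgfb2 were not called against liver. Id3, a target of BMP signals that holds back differentiation, was at 1.97 in the E10.5 embryo and at 0.11 and 0.22 in the E11.5 embryos. It was at 4.44 to 5.74 in lung, 3.03 to 6.17 in skin and 1.22 to 4.16 in liver, so that liver overlapped with the E10.5 embryo. The difference was -3.05 (SE 0.44, limma adjusted p = 8.09e-05). Id1 followed with 1.85, 0.55 and 0.25 and a difference of -1.96 (SE 0.41, limma adjusted p = 0.00445), which lost its call without E11.5 embryo 1 (adjusted p = 0.0980) and without E11.5 embryo 2 (0.145). Tgfb2, a TGF beta ligand, was at 0.00, 0.82 and 0.76, with a difference of -1.81 (limma adjusted p = 0.0254) that had adjusted p from 0.102 to 0.219 without each of the 3 embryos with members. Of 12 tested Notch genes none was called by limma against the 3 organs together (3 at an unadjusted p under 0.05; 0 by edgeR, 1 by DESeq2), and of 15 FGF genes 1 was higher and 1 lower. Of 16 genes of intestinal stem cells and the Wnt response Sp5 was higher, with an adjusted p = 0.184 without E11.5 embryo 1 and 0.272 without E11.5 embryo 2, and Smoc2 and Lef1 were lower. Lef1, a partner of beta-catenin, was at 0.00, 0.26 and 0.01 and lost its call without E10.5 embryo 1 (adjusted p = 0.202), E11.5 embryo 1 (0.105) or E11.5 embryo 2 (0.119). Smoc2, a matrix protein, lost its call without E10.5 embryo 2 (0.103) or either E11.5 embryo (0.391 and 0.224). Neither Lef1 nor Smoc2 was called against liver alone.

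Part of the genes of epithelial junctions were higher in the members. Of 29 tested genes of epithelial junctions 10 were higher than in the 3 organs together and none lower, a median difference of 0.52. Against lung 6 were higher (1.87% over all genes), against liver 14 (3.54%), and against skin 8 were higher (3.23%) and 2 lower (3.66%). Cldn6, a claudin of embryonic epithelia, was at 6.43, 6.68 and 6.75 in intestine and at 5.93 to 7.02 in lung, which overlap, and lower in skin (2.58 to 5.11) and liver (0.18 to 1.67). Its difference was 3.08 (SE 0.36, limma adjusted p = 8.39e-06). Cldn7 was at 5.61, 6.02 and 5.83, above every embryo of lung (3.92 to 4.77), skin (3.58 to 5.07) and liver (0.31 to 0.70), a difference of 2.83 (SE 0.30, limma adjusted p = 1.75e-06). Of 9 keratins 1 was higher: Krt19, a keratin of simple epithelia, was at 3.64, 4.17 and 3.84, overlapped with skin (3.21 to 4.54) and was above lung (1.46 to 2.27) and liver (0.00 to 0.71), with a difference of 1.79 (SE 0.29, limma adjusted p = 0.000371). Of 14 tested mesenchymal genes of the hybrid epithelial and mesenchymal state 2 were higher and 2 lower. Sparc, a matrix protein, was at 2.22, 2.27 and 2.16 against 5.29 to 5.85 in lung and 4.84 to 6.08 in skin. It was called lower against lung and against skin but was not called against liver. Its difference to the 3 organs together was -1.94 (SE 0.34, limma adjusted p = 0.000819, and 0.0538 without E10.5 embryo 1). Vim (vimentin) was at 3.95, 4.62 and 4.18 above every embryo of lung and liver and within the range of skin (3.46 to 5.62); its call against the 3 organs together was lost when any 1 of the 4 embryos was left out, with adjusted p from 0.0794 to 0.190.

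Most listed markers of skin, blood vessels and mesenchyme were low in the members, while single markers of other organs or cell types were higher. Of 20 genes of surface ectoderm, all tested, none was higher than in the 3 organs together and 8 were lower, and 11 of the 20 had 0 UMIs in the members. Against skin 18 were lower (3.66% over all genes), against lung 1 (0.903%) and against liver 0 (4.43%). Of 14 tested genes of lung epithelium 1 was higher than in the 3 organs together and 2 were lower, and Nkx2-1, the lung and thyroid factor, was at 0.05 or less. The higher one, Cpm, a membrane carboxypeptidase, was at 4.23, 4.44 and 4.14 in intestine, at 1.42 to 3.18 in lung, at 3.24 to 4.13 in liver and at 0.10 or less in skin. Its difference was 2.22 (SE 0.31, limma adjusted p = 5.36e-05), and against lung alone its call was lost without E11.5 embryo 1 (limma adjusted p = 0.125), without E11.5 embryo 2 (0.0530) and by edgeR (0.133). Of 5 tested mesothelium markers 2 were higher, Krt19 (above) and Aldh1a2, an enzyme of retinoic acid synthesis. Aldh1a2 was at 1.99, 0.84 and 0.84 against 0.40 or less elsewhere, and its difference of 1.22 (SE 0.17, limma adjusted p = 8.25e-05) was 0.76, under the size asked for, without E10.5 embryo 1. The 8 mesothelium markers summed to 176 to 278 CPM in the members and to 225 to 415 in skin, with Upk1b, Lrrn4 and Gpm6a at 0 UMIs in the members; their part in the result was not tested. Of 9 tested genes of stomach and oesophagus Pitx1 (above) was higher and 3 were lower, of which Irx3 had 0.00 in all 3 embryos against 2.40 to 3.42 in lung (difference to the 3 organs together -1.75, SE 0.29, limma adjusted p = 0.000416). Of 10 endothelial markers 1 had any UMI in the members, and of 11 leukocyte markers 9 did, with sums per embryo of 1.29 to 10.6 CPM. Mesenchyme markers summed to 30.7 to 88.6 CPM in the members against 335 to 865 in skin and 65.8 to 222 in lung. Red cell markers summed to 50.4 to 54.6 in intestine and to 697 to 928 in liver, so that blood RNA moved with the comparison to liver; its part in that result was not tested.

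Of 13 listed imprinted growth genes, all tested, 1 was higher (Peg3) and 4 were lower (Dlk1, Cdkn1c, Sgce and Igf2). Igf2, the growth factor expressed from the paternal copy, was abundant throughout, at 5.37, 5.61 and 5.59 in intestine and at 5.58 to 7.44 in the other organs. It differed by -1.02 (SE 0.15, limma adjusted p = 9.73e-05), and by -0.99, under the size asked for, without E11.5 embryo 1. Dlk1, a Notch-like membrane protein, was at 0.57, 0.18 and 0.29 and at 5.30 to 5.58 in liver, a difference of -2.15 (SE 0.30, limma adjusted p = 5.90e-05). Sgce, a sarcoglycan, had an adjusted p = 0.101 without E11.5 embryo 2. Peg3, a zinc finger factor, was at 3.0 in the E10.5 embryo and at 2.12 and 2.17 at E11.5, and overlapped with liver (1.35 to 2.25). Its difference of 1.38 (limma adjusted p = 0.00603) lost its call without E10.5 embryo 1, E11.5 embryo 1 or E11.5 embryo 2, with adjusted p from 0.0743 to 0.0974.

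The members varied from cell to cell, also in markers of the label. Among the members of the E11.5 embryos Lgals2 ran from 6.08 to 7.59 in embryo 1 and from 4.06 to 8.19 in embryo 2, with SDs of 0.49 and 0.84 over 21 and 24 cells. Elf3 ran from 0.00 to 4.59 in embryo 1 and from 0.00 to 3.78 in embryo 2, with SDs of 1.49 and 1.46, and those of Cdx2 were 1.34 and 1.33. Isx was expressed in 5 of 7, 21 of 21 and 22 of 24 cells of the 3 embryos, and Osr2 in 52 of 53 members. Cdx2 was expressed in 3 of 7, 9 of 21 and 11 of 24 cells of the 3 embryos and Gata4 in 5 of 7, 4 of 21 and 15 of 24. Of the other regional genes, Cdx1 was expressed in 1 member, Sox2, a factor of the foregut, in 1, and Pdx1, a factor of the duodenum and pancreas, in none, with 0.00 in each embryo. Of 39 Hox genes, which mark position along the trunk, 24 had a UMI in the members and 13 were expressed in at least 1 cell, among them Hoxb3 and Hoxd3 in 6 cells each. None of the 12 Hox genes tested was called by limma against the 3 organs together (3 at an unadjusted p under 0.05; 1 by edgeR, 0 by DESeq2). Of the posterior genes, Hoxc9 had 3 UMIs in all members and Hoxd9 had 1, while Hoxa9, Hoxb9, Hoxa10, Hoxc10 and Hoxd10 had none.

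**Figure D4:**
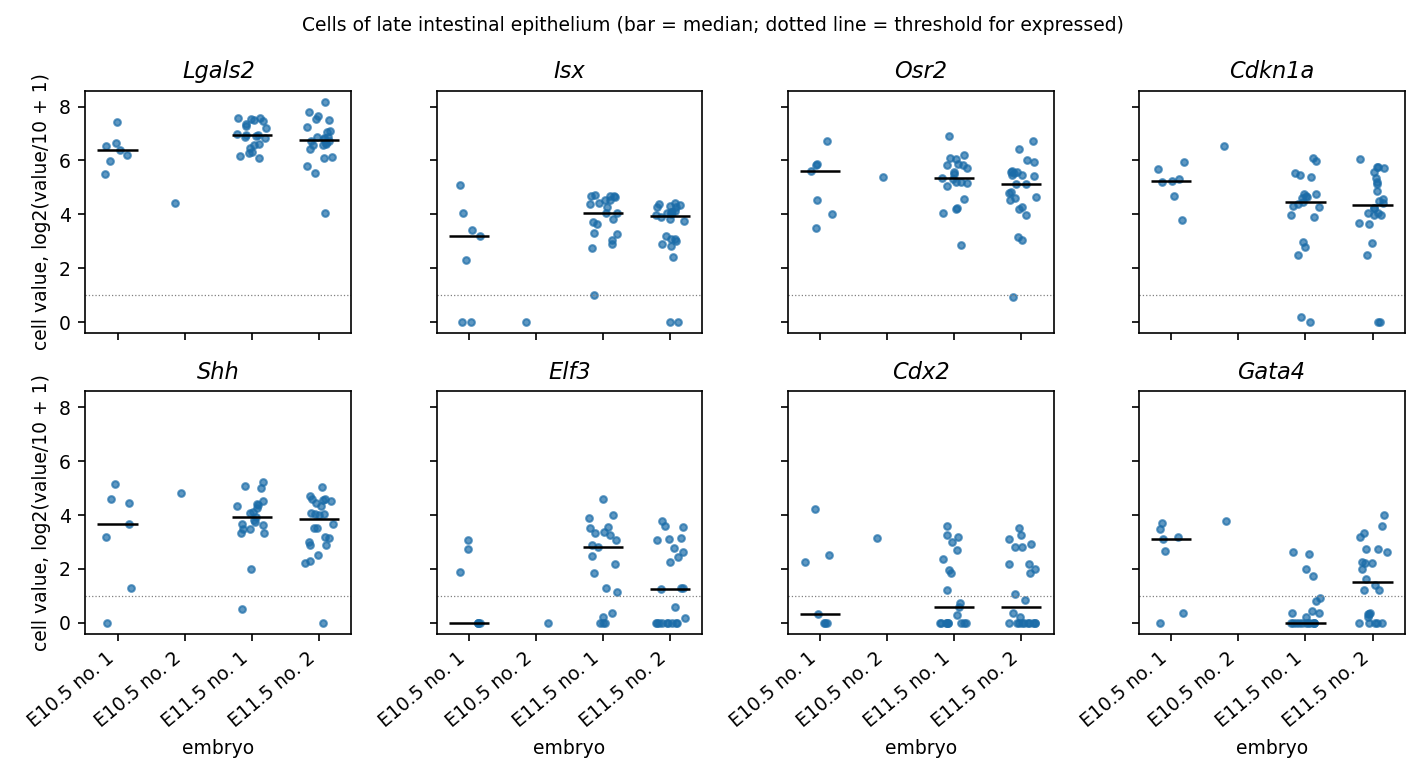
Values of single member cells on the log2(value/10 + 1) scale for 8 genes, by embryo; bars are medians and the dotted line is the threshold of 1 for expressed. Lgals2 lies above 4 in every member, while in the E11.5 embryos Cdx2, Elf3 and Gata4 run from 0.00 up to 3.61, 4.59 and 4.0.

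Cell cycle genes varied most. Of the 5101 genes with a mean of at least 1 in both E11.5 embryos, the 15 with the largest spread in both (by the smaller of the 2 SDs) were Cenpf, Ube2c, Cdc20, Cdk1, Cenpa, Top2a, Cdca8, Nusap1, Ccnb1, Cdca3, Hist1h2bc, Mt1, Luc7l2, Knstrn and Tpx2. Of these, 10 are in the G2/M list of the study and 0 in its G1/S list. Cenpf, a kinetochore protein, ran from 0.00 to 7.34 in embryo 1 and from 0.28 to 7.57 in embryo 2, with SDs of 2.68 and 2.60 against a median SD of 1.24 over these genes. Ube2c, which marks cyclins for destruction, ran from 0.99 to 8.46 and from 0.00 to 8.31, and its correlation with Cenpf was 0.86 over the 21 cells and 0.77 over the 24. Depth is shared by the points: Cenpf correlated with log depth at 0.37 and 0.24. Mt1, a metallothionein that binds zinc and copper, varied with SDs of 2.08 and 2.23, and its correlation with Cenpf was 0.04 and -0.05. That of Hist1h2bc, a histone gene, was -0.30 and -0.49. Luc7l2, a splicing factor, reached 8.70 and 8.92 in single cells, and its correlation with Cenpf was 0.66 in embryo 1 and -0.18 in embryo 2.

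By the scores of the study, the means of 43 G1/S genes and of 54 G2/M genes, 8 of 52 members in the 3 embryos were below 2 on both, 26 had the higher score in G2/M and 18 in G1/S. Below 2 on both were 2 of 7, 3 of 21 and 3 of 24 cells of the embryos. In skin 44 of 62 cells were below 2 on both (71.0%), in lung 4 of 37 (10.8%) and in liver 0 of 13. The 0 in liver allows a share of up to 23.1%. The skin cells split by day, with 3 of 7 and 7 of 15 in the E10.5 embryos and 17 of 19 and 17 of 21 in the E11.5 embryos. With cells thinned to 100000 UMIs and shallower ones left out, the counts were 9 of 47 in intestine (19.1%), 34 of 49 in skin (69.4%), 2 of 31 in lung (6.45%) and 0 of 12 in liver. None of the genes of either list was called by limma against the 3 organs together (4 G1/S genes and 1 G2/M gene at an unadjusted p under 0.05), while edgeR called 8 G2/M genes higher and DESeq2 6. Against skin 9 G1/S genes and 7 G2/M genes were higher in the members and none lower. G2/M scores of single members ran from 0.92 to 4.98.

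**Figure D5:**
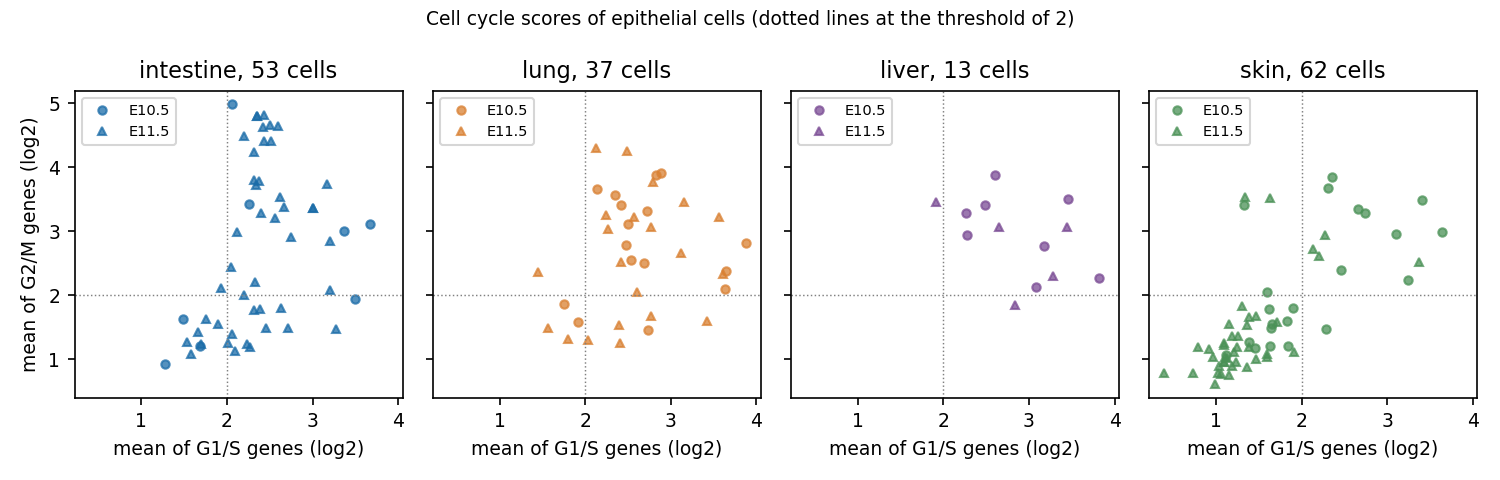
Mean of the G1/S genes against mean of the G2/M genes (both log2) for single epithelial cells of 4 organs; circles are E10.5 and triangles E11.5 cells, and dotted lines mark the threshold of 2. The members spread along the G2/M axis up to 4.98, and 44 of 62 skin cells lie in the lower left quadrant.

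The means of the 2 E11.5 embryos had a correlation of 0.97 over the 5101 genes, which are not independent replicates. Of these genes 38 differed by at least 1 between the 2 embryos, without a test since each is 1 animal. The largest differences, named after their values were seen, were Aldh1b1, an aldehyde dehydrogenase, at 3.53 in embryo 1 and 1.55 in embryo 2, Plac8 at 3.69 and 1.81, and 2610528A11Rik at 3.86 and 2.08. The lone member of E10.5 embryo 2 held Lgals2 at 4.44, Osr2 at 5.37, Fam183b at 5.95, Cdx2 at 3.15 and Gata4 at 3.79, while Isx and Elf3 were at 0.00, with 101673 UMIs.

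The share of intestinal epithelial cells that fell into the late cluster differed between the embryos of E10.5: 7 of 8 in embryo 1 (87.5%, 95% Wilson interval 52.9 to 97.8%) and 1 of 7 in embryo 2 (14.3%, 2.57 to 51.3%). At E11.5 it was 21 of 22 and 24 of 24. As a description, the early cluster intestine1, 55 cells mostly of E9.5, was compared over its 4 embryos with at least 3 cells. Lgals2 was at 0.00, 3.12 and 0.41 in the 3 E9.5 embryos and at 2.74 in early cells of E10.5 embryo 2, below the late embryo means of 6.39 or more. Isx was at 0.00, 1.12, 0.43 and 2.61. Gata4 was at most 0.23 in the early cells, Hnf4g at most 0.11 and Hnf4a at most 0.27. Cdx2 was at 3.62, 2.06 and 1.29 in the E9.5 embryos and at 0.83 in the early E10.5 cells, on both sides of the late embryo means of 1.18 to 1.33. Krt19, at 5.24 to 6.65 in the early cells, and Slc2a3, a neuronal-type glucose transporter at 3.91 to 4.90, were lower in the late embryos, at 3.64 to 4.17 and at 1.0 to 1.41. Epcam was at 6.08 to 6.88 in the early and at 6.05 to 6.67 in the late embryos.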

How the data were processed

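Single cells of 8 organs from 7 embryos were sequenced with a modified STRT protocol with UMIs. The authors demultiplexed reads (CASAVA 1.8), aligned them to mm10 (TopHat 2.0.12) and counted UMIs with htseq-count; the deposited values, named TPM, are CPM, UMIs scaled to 1000000 per cell, without gene length. Whole UMIs were recovered for 100% of values (tolerance 0.05), and totals equalled those of the study's cell table in 641 of 641 cells. Cell labels and clusters are the study's, and doublets were not called again. Cells with identical values in every gene (14 pairs in the series, 1 among the members and 1 in skin of E11.5 embryo 1) were kept, and counted once as an alternative.

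Embryo means of log2(value/10 + 1) over at least 3 cells, for 13512 genes expressed in at least 3 cells, were fitted with limma 3.58.1 (R 4.3.3; organ and day as terms, moderated with a trend), with Benjamini-Hochberg adjustment. edgeR 4.0.16 and DESeq2 1.42.0 on UMIs summed per embryo, and the settings of the closing section, were alternatives. On simulated data for 12823 genes, limma recovered 96 of 100 genes changed 4-fold and 10 of 100 changed 2-fold against the 3 organs together. At 4-fold it recovered 89 against lung, 71 against liver and 91 against skin. A 2-fold change is a log2 difference of 1, the size asked for, so that threshold itself held down its recovery. The changed genes were drawn above a set mean level, with an assumed spread between embryos. Genes of lower level or wider spread are therefore not covered. Organs of an embryo come from 1 animal; the deviations of such samples correlated at -0.0599 to 0.121 (median 0.0176).

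The members and gene lists were chosen with earlier results of these data known. Named were the 15 highest and 8 lowest genes among those called the same way against each organ, the 4 markers, up to 6 called genes of each list, the gut regulators, the 15 most variable genes and regional genes. The depth per cell is given in the report. RefSeq promoters (GRCm38.p6) matched 11 of the 15 high genes. Some genes named by these rules are not reported here.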

Additional observations from a re-analysis of the deposited data

Results flagged for a closer look

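Among the named genes, 204 groups of 4 embryos were searched for 1 embryo far from the other 3 (Dixon's ratio above its 95% critical value), and 16 were found. For normally spread values chance sets apart about 1 in 20 groups. That rate does not hold for groups with 3 embryos at 0.00, where any value above passes. None lies in intestine, which has 3 embryos and was not searched. In lung, Cpm was low in E11.5 embryo 1 at 1.4243 on the log2 scale, against 2.90 to 3.18 in the other 3. The other lung values were high ones near the limit of detection: Hhex at 0.2257 in E10.5 embryo 2, Sostdc1 at 0.5762 in E11.5 embryo 2, and, in E11.5 embryo 1, Apom at 0.2336, Alb at 0.0633, Wnt6 at 0.2051, Aldh1a2 at 0.4001 and Onecut1 at 0.0198. In skin, Hk2 was at 1.5886 in E10.5 embryo 1 against 1.25 to 1.28 in the others. E10.5 embryo 1 of skin also had Foxa1 at 0.0707, Sp5 at 0.3501 and Etv5 at 0.2924. Skin of E10.5 embryo 2 had Apom at 0.0359 and Onecut2 at 0.1707, and skin of E11.5 embryo 2 had Cpm at 0.0997 and Prox1 at 0.0516.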

How the results depend on the processing

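Of 87 called named genes, 41 kept their call in each of 16 alternative settings; of 1392 values 1193 kept the call, 193 lost it and 6 reversed. With E11.5 embryos alone, which leaves fewer samples, the calls numbered 237 against the 3 organs together, 151 against lung, 505 against liver and 508 against skin, with 52 genes higher and 1 lower than in each organ. Without 1 embryo they numbered 232 to 364 together, 235 to 310 against lung, 630 to 806 against liver and 549 to 798 against skin, with 75 to 81 higher and 3 to 5 lower than in each. DESeq2 called 702 together, 41 higher and 52 lower than in each, and edgeR 39 higher and 24 lower than in each. Of the 98 genes higher than in each organ, 36 were shared with edgeR and 32 with DESeq2. The 9 lower genes became 14 with log2(value + 1), 4 without the filter on low values and 5 with at least 5 cells per embryo; apart from the smaller samples the cause was not tested.

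Differences that changed sign by edgeR and DESeq2 were Apoa1 (1.30 and 1.41), Gas1 (0.0271 and 0.0533), Foxa3 (2.42 and 2.16) and Onecut2 (0.80 and 0.33). Foxa3 was also 0.41 with every intestinal epithelial cell of these days, and Hnf4a was -0.0214 with at least 5 cells per embryo. Leaving out 1 embryo moved Sox9 between -0.087 and 1.2 and Nr5a2 between -0.0172 and 0.22. The replicate block, with the embryo as a factor, gave 384 genes together, 328 against lung, 920 against liver and 872 against skin, and lost the calls of Smoc2, Trp63, Etv5, Gas1, Fgfr4, Slc2a3, Btg2 and Creb3l3 against the 3 organs together and, against single organs, of Uck2 (adjusted p = 0.0637) and F11r (0.0724) against skin, Hnf4a against lung (0.0834), Foxa2 against liver (0.0560) and Pitx1 against liver, where the difference was 0.98. Sox9 gained a call against liver (0.0283). Counting identical cells once, an alternative chosen after seeing the data, gave 438 genes together, 372 against lung, 1067 against liver and 928 against skin, with 98 higher (97 of them shared) and 9 lower (all 9 shared) than in each organ; of the named genes Fgfr4, at 0.99, lost its call, and 14 of the 15 most variable genes were shared. Changes of 2-fold were mostly missed on simulated data, but a call asks for a log2 difference of at least 1, which is that change itself. How far depth and 3 or 4 embryos per organ limited what could be called was not tested.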
